A study of Homo sapiens with 12 samples.

Results

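Glutathione is the main thiol that cells spend on peroxides, and the 9 genes described here cover its supply, its breakdown and its use: SLC7A11, GCLC, GCLM, GSS, CHAC1, GSR, GPX1, GPX4 and GPX8. They were matched by symbol, and all 9 were among the 17197 genes measured by RNA sequencing in AC16, a human line made by fusing adult ventricular heart cells with transformed fibroblasts. EP300 siRNA left the genes of this pathway moving in opposite directions. Transcripts of the cystine importer SLC7A11, the ligase subunit GCLM and the glutathione-degrading enzyme CHAC1 rose with and without H2O2, while those of GCLC, GSS, GSR and GPX4 fell. For SLC7A11 and CHAC1 the rise was smaller after H2O2 than without it.

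The study crossed an siRNA against EP300, an acetyltransferase that acts as a transcriptional coactivator, with exposure to the oxidant hydrogen peroxide (H2O2). The siEP300.H2O2 group (libraries 10 to 12) and the siNC.H2O2 group (libraries 7 to 9) received the EP300 siRNA or the negative control siRNA and, 12 h later, H2O2 for 1 h at 200 mM as labelled, where the unit itself is in doubt. The siEP300 group (libraries 4 to 6) and the siNC group (libraries 1 to 3) received the same siRNAs without H2O2. All cells were transfected with jetPRIME in serum-free medium, and RNA was taken 48 h after complete medium was put back. A treatment field names MLF1 in place of EP300 for the libraries titled siEP300. Whether the 3 libraries of a group are separate cultures is not stated, and p-values therefore reflect the spread between these libraries alone, which may be technical. AC16 is a single line, and its heart muscle genes MYH6, MYH7, TNNT2, MYL2, RYR2 and PLN averaged at most 0.103 FPKM in every group. These markers of working cardiomyocytes are thus at or near 0. The contractile gene TNNI3 averaged 0.473 to 1.05 FPKM and the heart transcription factor GATA4 2.87 to 5.42 FPKM over the 4 groups, DES reached 2.87 FPKM, and NPPB (90.8 to 129 FPKM) and GJA1 (33.7 to 79.8 FPKM) were well detected. The fibroblast collagen COL1A1 averaged 870.3 FPKM in siNC libraries. FPKM is a level per transcript length, and CPM, used below, is a level relative to the library total that suits comparison of 1 gene between libraries.

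Cystine enters cells through the exchanger of SLC7A11, which carries the transport, and its heavy chain SLC3A2, and is reduced to cysteine. Glutamate-cysteine ligase, made of the catalytic subunit GCLC and the modifier subunit GCLM, joins cysteine to glutamate in the rate-limiting step, and glutathione synthetase (GSS) adds glycine. CHAC1 cleaves glutathione inside the cell. Glutathione peroxidases such as GPX1 and GPX4 oxidise glutathione while they reduce peroxides, GPX4 those of membrane phospholipids, and glutathione reductase (GSR) restores it with NADPH. The transcription factors NRF2 (gene NFE2L2) and ATF4 are known to drive several of these genes, and loss of cystine import, glutathione or GPX4 is known to permit ferroptosis, a lipid peroxidation death.

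The codons at the catalytic centre are shown because they mark how the 3 peroxidases differ. A link between these codons and the RNA levels was not tested. Each line gives coding sequence of the transcript named, from GENCODE 29, and the capitals mark the catalytic codon. GPX1 and GPX4 use TGA, read there as selenocysteine, at chr3:49358132-49358134 on the minus strand and chr19:1105403-1105405 on the plus strand of GRCh38, and GPX8 has TGC for cysteine.
GPX1-201: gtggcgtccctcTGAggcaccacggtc
GPX4-201: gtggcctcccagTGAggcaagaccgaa
GPX8-203: gtggccagtgacTGCcaactcacagac

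Promoter sequences are shown for those of the 9 genes where a motif of NRF2 or ATF4 was found. The windows came from RefSeq (GRCh38.p14) and ran from 250 bases before to 50 after a start site. GCLC, GCLM, CHAC1, GPX1, GPX4 and GPX8 were in that table, which is 6 of the 9 genes. SLC7A11, GSS and GSR had no entry. The antioxidant response element core TGACNNNGC, searched on both strands, lay in 13.3% of all 35116 windows and, among these genes, in that of GCLM. The ATF4 composite element TGATGNAA lay in 3.62% of windows and in those of CHAC1 and GPX8. The cyclic AMP response element TGACGTCA, which shares its TGAC start with the antioxidant core, lay in 1.85% of windows and in none of these 6 genes. Capitals mark the motif, and each sequence is written on the strand that reads it, which is opposite to the gene. A match describes these letters and no binding was measured. The part of these motifs in the RNA levels was not tested.
GCLM, chr1:93909446-93909474, motif 34 to 26 bases before the start: tggaagacaaTGACTAAGCagaaatcgta
CHAC1, chr15:40953252-40953279, motif 209 to 202 bases before the start: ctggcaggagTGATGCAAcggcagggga
GPX8, chr5:55159972-55159999, motif 189 to 182 bases before the start: aaagtatttgTGATGTAAttataatttt

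Library totals ran from 16081437 to 19033679 estimated counts, and 13171 genes passed the filter on low counts, including all 9 described here, whose lowest count was 105, for CHAC1. EP300 itself measured 30.1, 26.9 and 26.5 CPM in siEP300.H2O2 libraries, against 59.9, 80.4 and 89.9 CPM in siNC.H2O2 libraries. It measured 36.3, 36.8 and 36.7 CPM in siEP300 libraries, against 101, 69.1 and 80.1 CPM in siNC libraries. Its libraries did not overlap in either pair, and the log2 fold changes were -1.46 ± 0.14 and -1.19 ± 0.14 (± SE). MLF1, the gene of the treatment field, was also called lower, at -0.29 and -0.22 on the same scale. Within groups, 28.6% of the variance lay on a single component, called the within-group axis here, whose gene loadings followed summed exon length with a rank correlation of 0.53 over 12868 genes, which is a description across genes that share these libraries. GPX1 and GPX4 had loadings near the low end (percentiles 3.07 and 4.62) and SLC7A11 near the high end (96.6). The highest scores were those of siEP300.H2O2 library 10 (15.8), siNC.H2O2 library 9 (12.1) and siNC library 1 (17.6).

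Markers of other cell types were also measured, as summed FPKM over a list. Endothelial markers (8 genes, mostly EGFL7) summed to 8.70 to 9.23 in siEP300.H2O2 libraries, against 24.0 to 28.2 in siNC.H2O2 libraries, and to 8.92 to 10.2 in siEP300 libraries, against 27.4 to 36.9 in siNC libraries, with PECAM1, CDH5, VWF and ERG at 0.183 FPKM or less on average in every group. Cardiomyocyte markers (14 genes, mostly NPPB and GJA1) summed to 126 to 143 in siEP300.H2O2 libraries, against 198 to 219 in siNC.H2O2 libraries, and to 134 to 137 in siEP300 libraries, against 189 to 202 in siNC libraries. Fibroblast markers (10 genes) summed to 907 to 921 in siEP300.H2O2 libraries, against 1055 to 1166 in siNC.H2O2 libraries, and to 1385 to 1430.3 in siEP300 libraries, against 1351 to 1456 in siNC libraries. Epithelial markers (7 genes, mostly KRT18) summed to 381 to 439.6 in siEP300.H2O2 libraries, against 481 to 518 in siNC.H2O2 libraries, and to 279 to 285 in siEP300 libraries, against 314 to 349 in siNC libraries. Leukocyte markers (5 genes, mostly CD68) summed to 49.0 to 56.6 in siEP300.H2O2 libraries, against 38.4 to 39.6 in siNC.H2O2 libraries, and to 30.8 to 34.1 in siEP300 libraries, against 26.3 to 32.9 in siNC libraries. Smooth muscle markers (6 genes, mostly TAGLN) summed to 224 to 272 in siEP300.H2O2 libraries, against 188 to 209 in siNC.H2O2 libraries. They summed to 188 to 190.4 in siEP300 libraries, against 149 to 157 in siNC libraries. CNN1 of this list went the other way, averaging 13.1 against 32.9 FPKM with H2O2 and 12.7 against 36.9 FPKM without. Each sum follows its most abundant genes, and other lists were mixed too. TEK went against its endothelial list, averaging 1.44 against 0.603 FPKM with H2O2 and 2.19 against 0.983 FPKM without. CD14 went against its leukocyte list, averaging 2.89 against 6.23 FPKM with H2O2 and 3.57 against 5.87 FPKM without. The collagen COL1A2 averaged 215 against 158 FPKM with H2O2 and 311 against 190 FPKM without, while COL1A1 was lower by mean in both pairs. The part of these markers in the results below was not tested.

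SLC7A11 had the largest response to EP300 siRNA of the 9 genes. It measured 61.1, 52.1 and 53.8 CPM in siEP300.H2O2 libraries, against 15.4, 15.7 and 21.8 CPM in siNC.H2O2 libraries. It measured 105, 109 and 114 CPM in siEP300 libraries, against 23.9, 17.7 and 18.5 CPM in siNC libraries. Every EP300 siRNA library lay above every control siRNA library, and the siEP300 libraries lay above the siEP300.H2O2 libraries too. In bulk RNA such as this, a change in the number of cells of a kind and a change in RNA per cell cannot be told apart. The EP300 siRNA effect was 3.15-fold after H2O2 (log2 fold change 1.66 ± 0.13, adjusted p = 4.4e-08) and 5.49-fold without it (2.46 ± 0.12, adjusted p = 5.7e-10). H2O2 lowered SLC7A11 by 0.98 ± 0.11 on the log2 scale in siEP300 cells (adjusted p = 1.6e-05), while its libraries overlapped between siNC.H2O2 and siNC, with a difference of -0.18 and a 95% interval from -0.47 to 0.11. The interaction, the difference between the EP300 siRNA effects after H2O2 and without it, was -0.80 ± 0.18 (adjusted p = 0.022). That call rested on several libraries, since the adjusted p lay between 0.054 and 0.074 without siNC library 2 or 3, siEP300 library 5 or 6, or siEP300.H2O2 library 11 or 12, each left out alone, and was 0.058 from FPKM with a pseudocount of 0.1. Without siNC.H2O2 library 9, SLC7A11 was called lower in siNC.H2O2 than in siNC (-0.37, adjusted p = 0.032). With the within-group axis as a covariate the interaction was -0.81.

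SLC7A11 spans chr4:138164097-138242349 on the minus strand of GRCh38, and exons of the antisense gene SLC7A11-AS1 overlap its exons. The counting strand is not given in the sources used here, so reads of the antisense partner cannot be told apart from those of SLC7A11. Its partner SLC3A2 changed little beside it, by 0.16 ± 0.09 with H2O2 (adjusted p = 0.13) and 0.22 ± 0.09 without (adjusted p = 0.044). The FPKM ratio of SLC7A11 to SLC3A2 averaged 0.0248 ± 0.0038 in siEP300.H2O2 libraries, against 0.00913 ± 0.0034 in siNC.H2O2 libraries, and 0.0584 ± 0.0013 in siEP300 libraries, against 0.0126 ± 0.0024 in siNC libraries (SD, n = 3). The exchanger's transport chain was therefore measured at a small share of its heavy chain in every group, per length of transcript.

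The 2 subunits of glutamate-cysteine ligase moved in opposite directions. GCLC measured 39.0, 37.2 and 37.2 CPM in siEP300.H2O2 libraries, against 51.7, 49.5 and 52.8 CPM in siNC.H2O2 libraries. It measured 34.1, 40.0 and 35.7 CPM in siEP300 libraries, against 55.7, 55.9 and 53.9 CPM in siNC libraries. All EP300 siRNA libraries lay below all control siRNA libraries, with log2 fold changes of -0.44 ± 0.06 (adjusted p = 3.2e-05) and -0.59 ± 0.06 (adjusted p = 1.6e-06). GCLM measured 45.1, 47.6 and 43.5 CPM in siEP300.H2O2 libraries, against 24.3, 30.0 and 32.4 CPM in siNC.H2O2 libraries. It measured 47.8, 48.2 and 50.4 CPM in siEP300 libraries, against 31.4, 27.9 and 26.7 CPM in siNC libraries. Here every EP300 siRNA library lay above every control siRNA library, by 0.65 ± 0.09 (adjusted p = 2.2e-05) and 0.77 ± 0.09 (adjusted p = 3.7e-06).

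Per length of transcript, the ratio of modifier to catalytic subunit was 0.886 ± 0.039 in siEP300.H2O2 libraries, against 0.420 ± 0.066 in siNC.H2O2 libraries, and 0.994 ± 0.10 in siEP300 libraries, against 0.381 ± 0.029 in siNC libraries (FPKM ratio, SD, n = 3). No library with EP300 siRNA had a ratio as low as the highest with control siRNA, which was 0.460. No H2O2 effect was called for either subunit, at 0.05 for GCLC and -0.10 for GCLM in siEP300 cells, and at -0.10 and 0.01 in siNC cells. GCLC libraries nevertheless did not overlap between siNC.H2O2 and siNC, and GCLM libraries did not overlap between siEP300.H2O2 and siEP300. The alternatives put the GCLC difference in siNC cells between -0.19 and -0.08, and not all of them left it uncalled. GCLC and GCLM lie at chr6:53497341-53616970 and chr1:93885205-93909456, both on the minus strand. The GCLM promoter stretch shown above was placed by a RefSeq start, and it reaches across this GENCODE start of GCLM. GENCODE places AL033397.2 on the opposite strand and AL033397.1 on the same strand over exons of GCLC, and neither is in the deposited table.

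**Figure D1:**
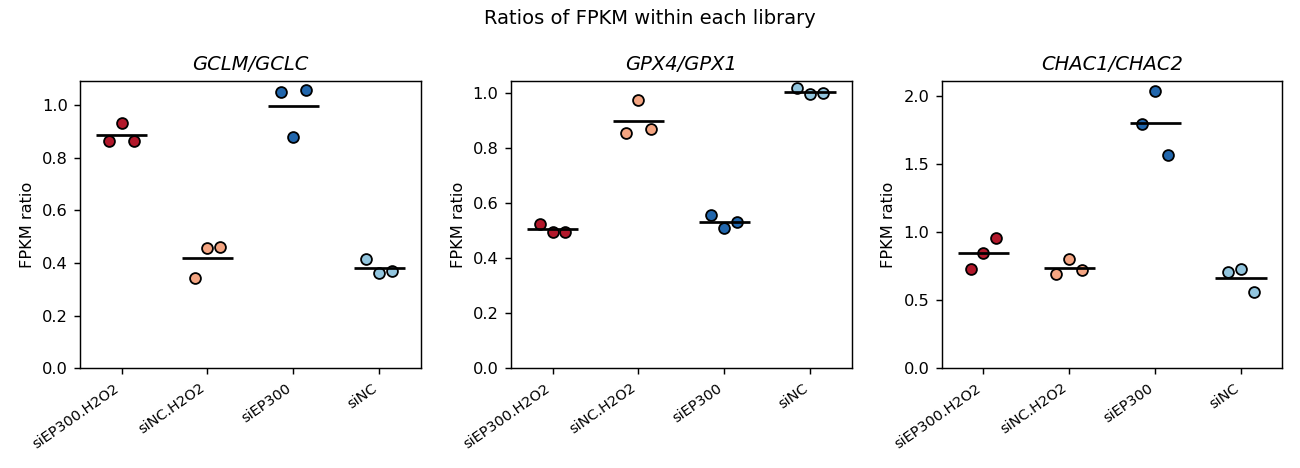
Ratios of FPKM between paired transcripts in each of the 12 libraries, with points for libraries and a line for the group mean. GCLM to GCLC runs from 0.863 to 1.05 in libraries with EP300 siRNA and from 0.344 to 0.460 in those with control siRNA, GPX4 to GPX1 runs lower with EP300 siRNA, and CHAC1 to CHAC2 is highest in siEP300 libraries.

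GSS, which finishes glutathione, fell after EP300 siRNA and rose after H2O2. It measured 119, 119.7 and 129 CPM in siEP300.H2O2 libraries, against 208, 181 and 175 CPM in siNC.H2O2 libraries, a log2 fold change of -0.62 ± 0.07 (adjusted p = 2.5e-06). It measured 99.1, 92.5 and 89.4 CPM in siEP300 libraries, against 149, 163 and 163 CPM in siNC libraries (-0.76 ± 0.07, adjusted p = 3.3e-07). The 4 groups formed 4 separate levels, lowest in siEP300 and highest in siNC.H2O2. H2O2 raised GSS by 0.39 ± 0.07 in siEP300 cells (adjusted p = 0.00083) and by 0.25 ± 0.07 in siNC cells (adjusted p = 0.012), and the interaction was not called (0.14, 95% interval -0.07 to 0.35, adjusted p = 0.54). The rise in siNC cells was no longer called without siNC library 1 (adjusted p = 0.0501) or siNC.H2O2 library 7 (0.057), or from FPKM (0.053 and 0.055). The gene lies at chr20:34928433-34956027 on the minus strand.

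CHAC1, an enzyme that breaks glutathione down in the cytosol, had its highest levels in siEP300 libraries, as SLC7A11 did. It measured 11.5, 14.0 and 13.7 CPM in siEP300.H2O2 libraries, against 7.97, 6.60 and 7.91 CPM in siNC.H2O2 libraries. It measured 23.8, 24.2 and 23.5 CPM in siEP300 libraries, against 8.55, 7.97 and 7.10 CPM in siNC libraries. The siEP300 libraries stood highest and the siEP300.H2O2 libraries lay between them and the overlapping control siRNA libraries. EP300 siRNA raised CHAC1 1.73-fold after H2O2 (0.79 ± 0.11, adjusted p = 1.3e-05) and 3.02-fold without it (1.60 ± 0.10, adjusted p = 4.6e-09). H2O2 lowered it by 0.87 ± 0.09 in siEP300 cells (adjusted p = 7.6e-06), and in siNC cells the difference was -0.07 with a 95% interval from -0.30 to 0.17. The interaction was -0.80 ± 0.15 (adjusted p = 0.0077) and was called under all 19 alternatives that gave one.

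The relative CHAC2, which degrades glutathione constitutively, had an EP300 siRNA effect of 0.65 ± 0.12 with H2O2 (adjusted p = 0.00027) and 0.25 ± 0.12 without (adjusted p = 0.080). The FPKM ratio of CHAC1 to CHAC2 was 0.844 ± 0.11 in siEP300.H2O2 libraries and 0.737 ± 0.059 in siNC.H2O2 libraries, whose ranges overlapped, against 1.80 ± 0.23 in siEP300 libraries and 0.662 ± 0.092 in siNC libraries (SD, n = 3). CHAC1 lies at chr15:40952962-40956519 on the plus strand, and the promoter match shown above falls inside this span, after the GENCODE start of the gene.

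GSR, the reductase that turns oxidised glutathione back, fell by nearly the same amount in both pairs. It measured 48.1, 45.9 and 52.8 CPM in siEP300.H2O2 libraries, against 78.2, 81.3 and 86.1 CPM in siNC.H2O2 libraries (-0.74 ± 0.06, adjusted p = 1.6e-07). It measured 52.2, 57.4 and 55.5 CPM in siEP300 libraries, against 89.0, 92.2 and 89.7 CPM in siNC libraries (-0.71 ± 0.06, adjusted p = 2.1e-07). The 6 EP300 siRNA libraries all lay below the 6 control siRNA libraries, and the difference between the 2 effects was -0.03 with a 95% interval from -0.22 to 0.16. H2O2 gave -0.17 in siEP300 cells (adjusted p = 0.060), which was called under 8 of 20 alternatives, and -0.14 in siNC cells (adjusted p = 0.092), which was called with the within-group axis as a covariate (-0.14, adjusted p = 0.027) and from FPKM at either pseudocount (-0.21 and -0.22, adjusted p = 0.013 and 0.014). TXNRD1, the reductase of the parallel thioredoxin system, changed by 0.33 ± 0.08 with H2O2 (adjusted p = 0.0032) and 0.57 ± 0.08 without (adjusted p = 3.3e-05). The FPKM ratio of GSR to TXNRD1 averaged 0.0692 ± 0.0039 in siEP300.H2O2 libraries, against 0.146 ± 0.012 in siNC.H2O2 libraries, and 0.0794 ± 0.0050 in siEP300 libraries, against 0.193 ± 0.020 in siNC libraries (SD, n = 3).

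Of the 3 glutathione peroxidases, GPX4 fell, GPX1 was not called and GPX8 rose in 1 of the 2 EP300 siRNA comparisons. GPX4, which reduces phospholipid hydroperoxides, measured 66.3, 84.2 and 75.8 CPM in siEP300.H2O2 libraries, against 133, 129 and 109 CPM in siNC.H2O2 libraries. It measured 72.5, 66.4 and 68.7 CPM in siEP300 libraries, against 114, 147 and 131 CPM in siNC libraries. The libraries did not overlap in either pair, and GPX4 fell by 0.71 ± 0.10 (adjusted p = 2.7e-05) and 0.92 ± 0.10 (adjusted p = 2.2e-06) on the log2 scale. Within each group its lowest library was the one with the highest score on the within-group axis, and with that axis as a covariate the falls were 0.71 and 0.91.

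GPX1, the abundant peroxidase of the cytosol and mitochondria, measured 149, 198 and 178 CPM in siEP300.H2O2 libraries, against 182, 155 and 145 CPM in siNC.H2O2 libraries. It measured 152, 152 and 151 CPM in siEP300 libraries, against 131, 172 and 151 CPM in siNC libraries. All groups overlapped. The EP300 siRNA difference was 0.13 with H2O2 (95% interval -0.11 to 0.36) and 0.002 without it (-0.23 to 0.23), so a fall of the size measured for GPX4 lay outside both intervals. With H2O2 the difference in GPX1 was called when the within-group axis was a covariate (0.12, adjusted p = 0.017), a fit whose axis was itself estimated from these residuals.

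The FPKM ratio of GPX4 to GPX1, transcripts with loadings close to each other on that axis, was 0.505 ± 0.018 in siEP300.H2O2 libraries, against 0.900 ± 0.066 in siNC.H2O2 libraries, and 0.533 ± 0.023 in siEP300 libraries, against 1.00 ± 0.012 in siNC libraries (SD, n = 3). This ratio did not overlap between EP300 siRNA and control siRNA. As a share of the summed FPKM of the measured glutathione peroxidases, GPX4 made up 30.2% in siEP300.H2O2 libraries, against 43.3% in siNC.H2O2 libraries, and 30.9% in siEP300 libraries, against 45.7% in siNC libraries. GENCODE 29 lists GPX1 as a polymorphic pseudogene, and its processed copies GPX1P1 and GPX1P2 are not in the table, so reads that fit several copies may have been split in a way that is not known.

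GPX8, a membrane-bound peroxidase of the endoplasmic reticulum, varied little between the libraries of a group. It measured 105, 104 and 105 CPM in siEP300.H2O2 libraries, against 98.7, 96.9 and 103 CPM in siNC.H2O2 libraries. It measured 115, 116 and 114 CPM in siEP300 libraries, against 98.2, 100.3 and 101 CPM in siNC libraries. EP300 siRNA raised it without H2O2 (0.20 ± 0.05, adjusted p = 0.0021), while with H2O2 the difference of 0.07 ± 0.05 was not called although the libraries did not overlap. H2O2 lowered it by 0.13 ± 0.05 in siEP300 cells (adjusted p = 0.043), a call lost without the filter on low counts (adjusted p = 0.088) and without any 1 of 8 libraries (adjusted p from 0.051 to 0.12), namely siNC library 3, siNC.H2O2 library 8 and all libraries of siEP300 and siEP300.H2O2. GPX8 lies within CDC20B on the opposite strand, which averaged 0.032 CPM. Its relative GPX7 in the same compartment fell, by 0.39 ± 0.09 with H2O2 (adjusted p = 0.0018) and 0.64 ± 0.09 without (adjusted p = 2e-05).

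**Figure D2:**
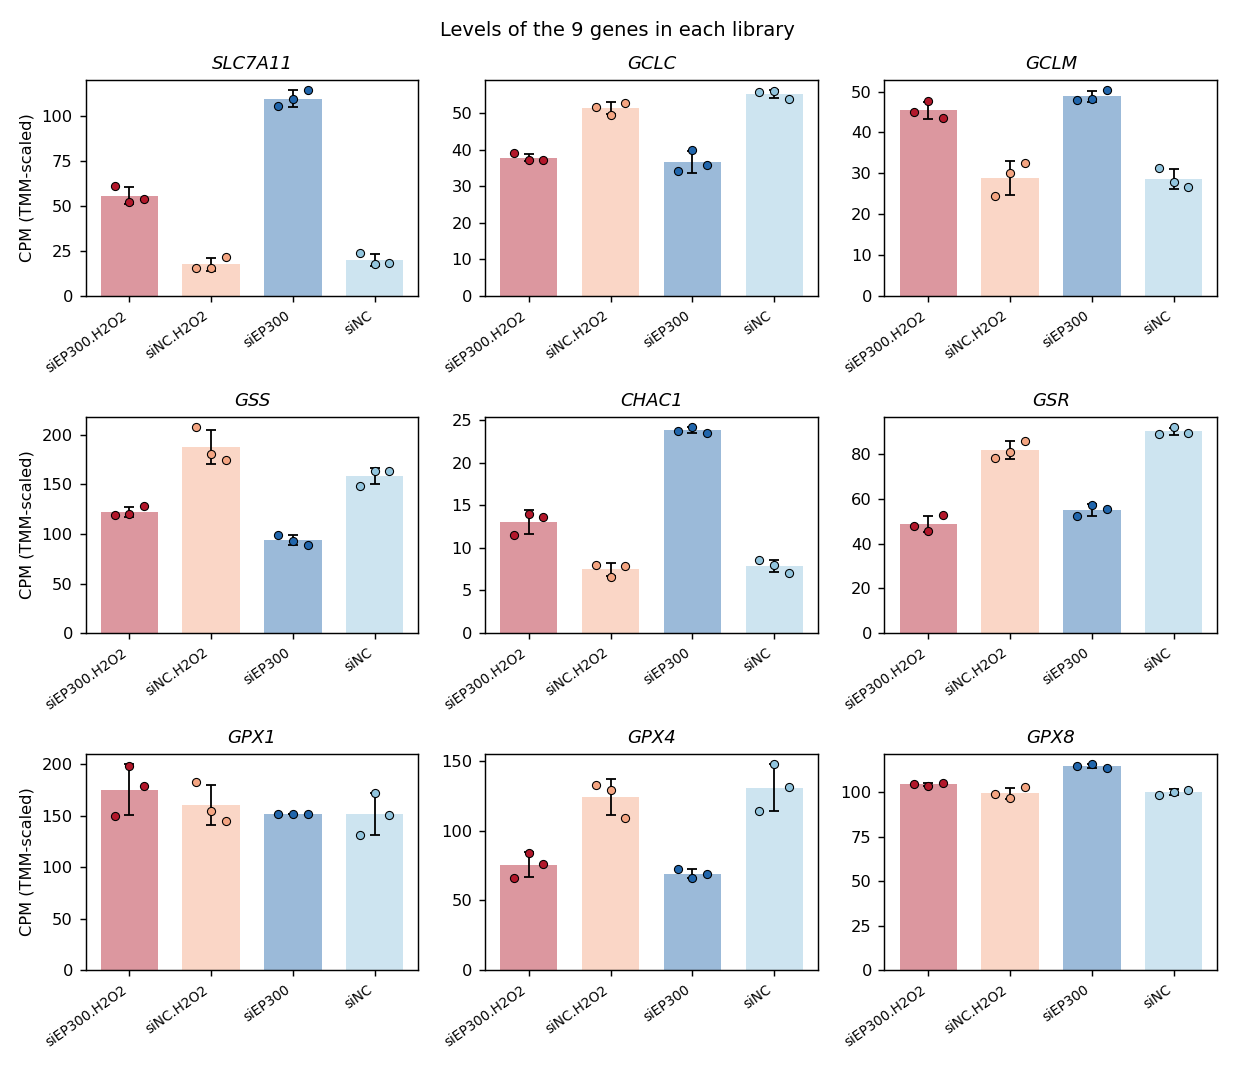
CPM of each gene in each of the 12 libraries (points), with the group mean (bar, from 0) and SD (n = 3). SLC7A11 and CHAC1 stand highest in siEP300 libraries, GCLC, GSS, GSR and GPX4 are lower with EP300 siRNA in both pairs, and GPX1 overlaps in all groups.

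**Figure D3:**
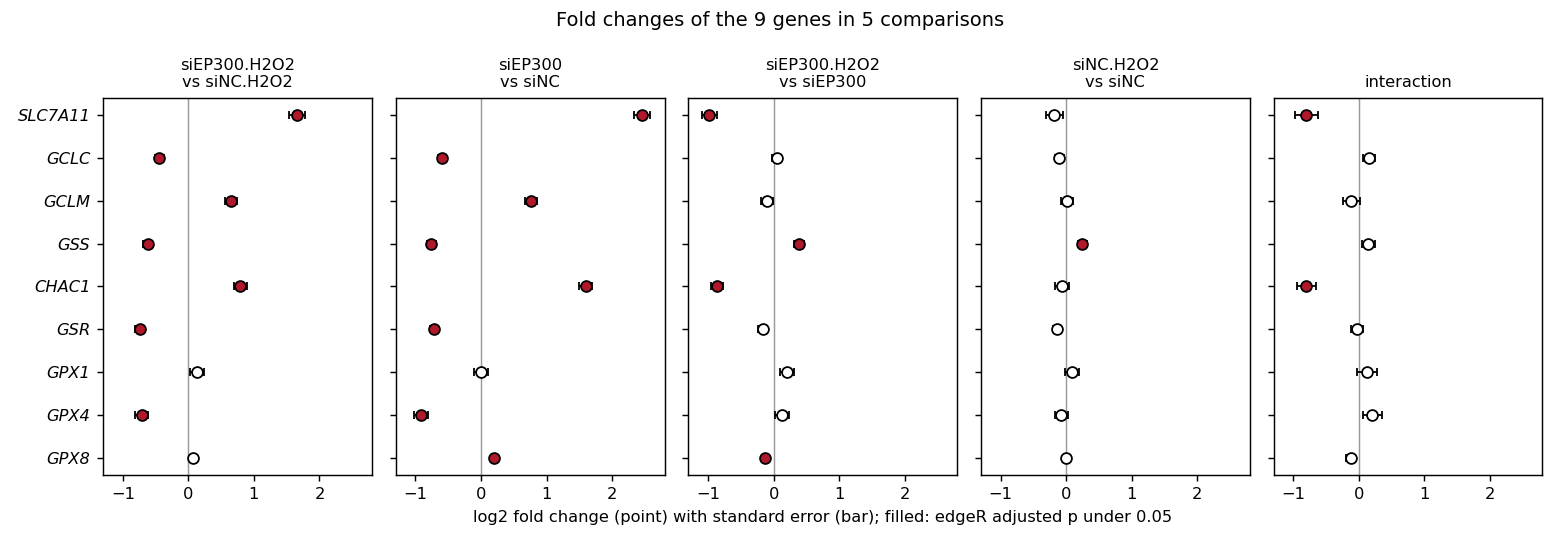
Log2 fold changes with their standard errors for the 9 genes in the 5 comparisons, filled where the adjusted p was under 0.05. SLC7A11 and CHAC1 are the 2 genes with a called interaction, at -0.80 each.

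Counted together, 3 of the 9 genes rose and 4 fell with EP300 siRNA in cells exposed to H2O2, where edgeR called 59.0% of all tested genes (28.4% higher, 30.6% lower). Without H2O2, 4 rose and 4 fell, where 61.5% of all genes were called (30.1% higher, 31.4% lower). These shares of called genes are high throughout the transcriptome, so the counts alone are read against that background, and the median of the 9 genes was 0.07 with H2O2 and 0.002 without, against -0.02 and -0.004 over all genes. H2O2 in siEP300 cells was called for 4 of the 9, GSS higher and SLC7A11, CHAC1 and GPX8 lower, against 31.1% of all genes (15.9% higher, 15.1% lower). In siNC cells GSS was the 1 gene called, against 35.3% of all genes (17.8% higher, 17.4% lower). The interaction was called for 2 of 9, both lower, against 3.33% of all genes (1.12% higher, 2.21% lower). The comparisons share libraries, since siEP300 is in both the EP300 siRNA comparison without H2O2 and the H2O2 comparison in siEP300 cells, so their values are not independent of each other.

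Per length of transcript, GPX1 and GPX4 were the most abundant of the 9 in every group. In siEP300.H2O2 libraries GPX1 averaged 294 FPKM, GPX4 148, GSS 74.4, GPX8 29.8, GSR 17.5, GCLC 10.8, CHAC1 9.95, GCLM 9.54 and SLC7A11 5.82 FPKM, and of neighbours in this order CHAC1 and GCLM overlapped. In siNC.H2O2 libraries GPX1 averaged 274 FPKM, GPX4 246, GSS 115, GSR 29.6, GPX8 28.7, GCLC 14.7, GCLM 6.16, CHAC1 5.53 and SLC7A11 1.86 FPKM, with overlap between GPX1 and GPX4, GSR and GPX8, and GCLM and CHAC1. SLC7A11 was thus the lowest of the 9 in both H2O2 groups.

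Without H2O2, the order in siEP300 libraries was GPX1 at 263 FPKM, GPX4 140.0, GSS 58.2, GPX8 33.5, GSR 20.2, CHAC1 18.6, SLC7A11 11.7, GCLC 10.6 and GCLM 10.5 FPKM, and GSR overlapped CHAC1, SLC7A11 overlapped GCLC and GCLC overlapped GCLM. In siNC libraries it was GPX4 at 273 FPKM, GPX1 272, GSS 103, GSR 34.4, GPX8 30.5, GCLC 16.7, GCLM 6.38, CHAC1 6.06 and SLC7A11 2.25 FPKM, with overlap between GPX4 and GPX1 and between GCLM and CHAC1. SLC7A11 was last in siNC libraries and above GCLC and GCLM by mean in siEP300 libraries.

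Among 10537 protein-coding genes averaging at least 5 CPM, the profile nearest to SLC7A11, by root mean square distance of centred log2 CPM over the 12 libraries, was that of PSAT1, an enzyme of serine synthesis, at 0.23, followed by AGTR1, an angiotensin receptor, and CPED1, both at 0.27. PSAT1 averaged 169 CPM in siEP300.H2O2 libraries, 61.1 CPM in siNC.H2O2 libraries, 325 CPM in siEP300 libraries and 84.0 CPM in siNC libraries. The nearest to CHAC1 were PCK2, a mitochondrial enzyme of phosphoenolpyruvate synthesis, at 0.16, GPR85, an orphan receptor, at 0.19, and ME1, a malic enzyme that makes NADPH, at 0.20. The nearest to GSS were ACSL1, GIT1 and ADRM1, all at 0.07. The other 6 genes spanned less than 1 on the log2 scale between group means, and no neighbour was sought for them.

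In the lists of related genes that follow, each pair of log2 fold changes gives siEP300.H2O2 against siNC.H2O2 and then siEP300 against siNC, and changes written as rose or fell passed the test. Of all tested genes, 28.4% were called higher and 30.6% lower with H2O2 (median -0.02), and 30.1% higher and 31.4% lower without (median -0.004). The cystine and cysteine supply list held 8 tested genes, of which EP300 siRNA raised 3 and lowered 2 with H2O2, and raised 4 and lowered 2 without. The median was 0.06 with H2O2 and 0.09 without. The glutamate and cysteine transporter SLC1A1 fell by 1.09 ± 0.09 with H2O2 and by 0.58 ± 0.09 without, with an interaction of -0.51 (adjusted p = 0.046), and CBS, which makes cystathionine on the way to cysteine, rose by 0.47 ± 0.14 and 0.54 ± 0.13. Of 12 genes of glutathione breakdown and transport, 3 rose and 6 fell with H2O2 (median -0.19) and 2 rose and 5 fell without (median -0.21), beside 59.0% and 61.5% of all genes called in either direction. The aminopeptidase ANPEP fell by 1.16 ± 0.06 and 0.86 ± 0.06, and SLC25A39, the mitochondrial glutathione importer, fell by 0.45 ± 0.09 and 0.46 ± 0.09.

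Of 19 other peroxidases and glutathione transferases, 6 rose and 5 fell with H2O2 (median 0.09) and 4 rose and 5 fell without (median 0.06), beside 59.0% and 61.5% of all genes called. PTGES, a glutathione-dependent prostaglandin E synthase, fell by 3.06 ± 0.14 with H2O2 and 2.74 ± 0.14 without, and the transferase GSTK1 by 0.72 ± 0.08 and 0.89 ± 0.08. The membrane transferase MGST1 rose by 0.35 ± 0.06 and 0.70 ± 0.06. Of 20 selenoproteins and factors of their synthesis, 5 rose and 9 fell with H2O2 and 4 rose and 11 fell without, with medians of -0.14 and -0.31. Over all genes 28.4% rose and 30.6% fell with H2O2, and 30.1% rose and 31.4% fell without. SELENOO fell by 0.49 ± 0.09 and 0.85 ± 0.10 and SELENOW by 0.45 ± 0.08 and 0.60 ± 0.08, while DIO2 rose by 0.89 ± 0.11 and 1.11 ± 0.10.

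NADPH supply, on which GSR depends, had 6 of 15 genes higher and 6 lower with H2O2, and 8 higher and 5 lower without (medians 0.13 and 0.14), beside 28.4% and 30.6% of all genes with H2O2, and 30.1% and 31.4% without. ME1 rose by 0.96 ± 0.09 and 1.36 ± 0.09 and ALDH1L2 of mitochondrial folate metabolism by 1.23 ± 0.11 and 1.75 ± 0.10, while the mitochondrial isocitrate dehydrogenase IDH2 fell by 1.01 ± 0.06 and 1.03 ± 0.06. Of 20 thioredoxins, peroxiredoxins and glutaredoxins, 8 rose and 5 fell with H2O2 and 8 rose and 9 fell without (medians 0.02 and 0.07), beside the same shares of all genes. The endoplasmic reticulum peroxiredoxin PRDX4 rose by 1.28 ± 0.11 and 1.05 ± 0.11 and cytosolic PRDX2 fell by 0.56 ± 0.09 and 0.74 ± 0.09. In siEP300 cells H2O2 raised 5 of these 20 and lowered 1, beside 15.9% of all genes higher and 15.1% lower, and in siNC cells it raised 8 and lowered 1, beside 17.8% higher and 17.4% lower.

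Of 23 amino acid response targets of ATF4, 10 rose and 7 fell after EP300 siRNA with H2O2 (median -0.01), and 17 rose and 4 fell without (median 0.34). Over all genes 28.4% rose and 30.6% fell with H2O2, and 30.1% rose and 31.4% fell without. H2O2 lowered 18 and raised 1 in siEP300 cells (median -0.35), beside 15.1% of all genes lower and 15.9% higher, and lowered 7 and raised 2 in siNC cells (median -0.09), beside 17.4% lower and 17.8% higher. The interaction was called lower for 8 and higher for none of the 23, with a median of -0.31, beside 2.21% of all genes called lower, and a set test was not made. They included the asparagine synthetase ASNS (-0.41 ± 0.09, adjusted p = 0.026), PSAT1 (-0.48 ± 0.09, adjusted p = 0.0076) and the leucine sensor SESN2 (-0.61 ± 0.11, adjusted p = 0.0083). These genes differed in their H2O2 effects. In siNC cells H2O2 gave -0.62 for ASNS and -0.46 for PSAT1 but raised SESN2 by 0.67. In siEP300 cells it gave -1.03 and -0.94, and SESN2 was not called (0.05, adjusted p = 0.62). This list and the SLC7A11 and CHAC1 values come from the same libraries, and earlier results of these data were known when it was drawn up.

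Of 23 regulators, 12 rose and 5 fell with H2O2 (median 0.27) and 14 rose and 4 fell without (median 0.28), beside 28.4% of all genes higher and 30.6% lower with H2O2, and 30.1% and 31.4% without. ATF4 rose by 0.28 ± 0.10 with H2O2 (adjusted p = 0.028) and 0.52 ± 0.10 without (adjusted p = 5e-04), whereas NFE2L2 differed by -0.06 ± 0.06 and 0.02 ± 0.06 (adjusted p = 0.34 and 0.76). The related factor NFE2L1 rose by 0.85 ± 0.05 and 0.90 ± 0.05, and CUL3, the ubiquitin ligase scaffold that works with KEAP1 on NRF2, fell by 0.82 ± 0.06 and 0.83 ± 0.06. TRIB3 rose by 1.06 ± 0.09 and 1.19 ± 0.09, and DDIT3 by 1.16 ± 0.10 and 1.02 ± 0.10. Their interactions of -0.13 and 0.15 were not called. Of 20 NRF2 targets outside glutathione metabolism, 9 rose and 4 fell with H2O2 and 9 rose and 5 fell without (medians 0.20 and 0.14), beside the same shares of all genes. The quinone reductase NQO1 rose by 1.28 ± 0.06 and 1.27 ± 0.06, and its interaction was 0.01, while the steroid reductase AKR1C3 fell by 0.66 ± 0.12 and 1.19 ± 0.10. Of 17 ferroptosis regulators, 6 rose and 6 fell with H2O2 and 7 rose and 6 fell without (medians 0.05 and 0.05), beside 59.0% and 61.5% of all genes called in either direction. They included the transferrin receptor TFRC, which rose by 0.70 ± 0.06 and 0.77 ± 0.06, and DHODH, which fell by 1.02 ± 0.10 and 1.23 ± 0.10.

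**Figure D4:**
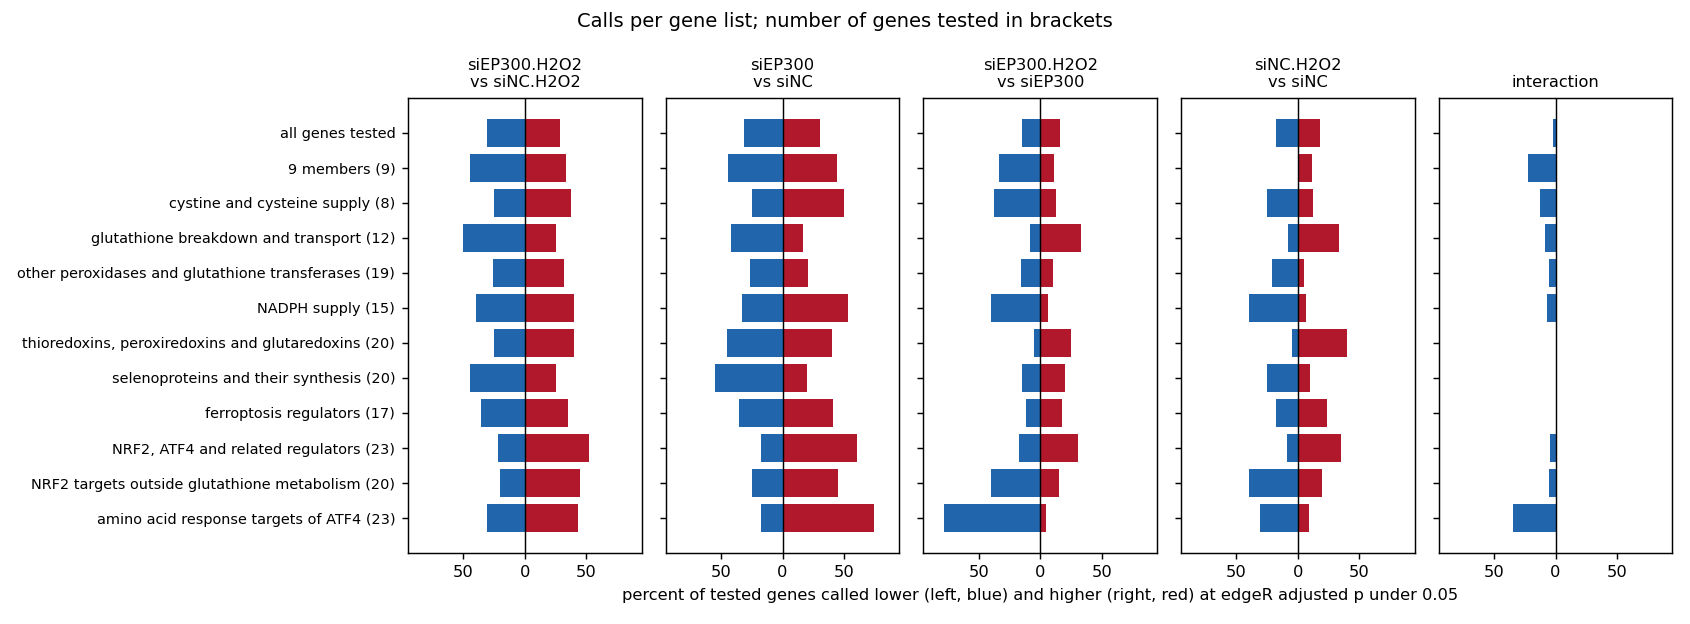
Percent of tested genes called lower (left) and higher (right) in each comparison, for all genes, the 9 genes and the 10 lists. The amino acid response targets of ATF4 have 18 of 23 genes lower with H2O2 in siEP300 cells and 8 of 23 with a lower interaction.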

How the data were processed

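Estimated counts and FPKM, each as a table of 17197 gene symbols in 12 libraries, are the values the authors deposited. HISAT, Bowtie2 and the GRCh38.p13 build are named, per the submitters' processing notes. The counting program with its strand setting and annotation is not given in the sources used here. The deposited estimated counts were rounded (12.0% to 13.8% were not whole) and tested with edgeR 4.0.16 in R 4.3.3: filterByExpr, TMM, glmQLFit and glmQLFTest with 1 mean per group over all 12 libraries, two-sided, Benjamini-Hochberg over 13171 genes, called under 0.05. Adjusted p-values without a named test are from this fit. Levels are CPM on the TMM-scaled total, which compares 1 gene between libraries. The deposited FPKM were used for comparisons between genes, as within-library ratios, and with limma 3.58.1 on log2(FPKM + 1) and log2(FPKM + 0.1), which understates changes of low genes. Each library counted as 1 replicate. Replicate pairs differed by more than sampling noise (chi-square divided by its degrees of freedom 1.78 to 18.1, at a minimum of 20 counts). That spread cannot show whether the libraries are separate cultures. The fit was also run on simulated counts, drawn independently for each library without a within-group axis. That run gives no error rate for these data.

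The 9 genes and the lists were chosen with earlier results of these data known. Beside the 9 genes, the text names EP300, MLF1, their partners, and per list up to 4 genes with the smallest adjusted p in either EP300 siRNA comparison and at least 5 CPM on average, and it prints some of those. For genes whose group means span at least 1 on the log2 scale it names the 3 nearest profiles. Positions and overlaps are from GENCODE 29 (GRCh38).

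Alternatives were RLE factors, DESeq2 1.42.0, no filter, a mean of at least 5 CPM, a fit to the groups of a comparison alone, FPKM with limma, each library left out, and the within-group axis as a covariate.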

Additional observations from a re-analysis of the deposited data

Results flagged for a closer look

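The EP300 siRNA effect differed with H2O2 for 2 of the 9 genes, by a test of the difference itself. Over all tested genes the same test called 3.33% (1.12% higher, 2.21% lower). For SLC7A11 the effect with H2O2 minus that without was -0.80 on the log2 scale (edgeR, adjusted p = 0.022), with effects of 1.66 with H2O2 and 2.46 without. For CHAC1 it was -0.80 (adjusted p = 0.0077), with effects of 0.79 with H2O2 and 1.60 without. The CHAC1 call held under every alternative that gave one. The SLC7A11 call was lost on leaving out siNC library 2 or 3, siEP300 library 5 or 6, or siEP300.H2O2 library 11 or 12. It was also lost from FPKM with a pseudocount of 0.1. In both genes all 3 siEP300.H2O2 libraries lay below all 3 siEP300 libraries, and the siNC.H2O2 and siNC libraries overlapped. No test of an explanation was made.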

How the results depend on the processing

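No paired analysis was possible because the groups compared share no replicate numbers in the labels. Over 20 alternatives, 853 of 891 recomputed log2 fold changes of the 9 genes kept their side of the threshold, none that was called changed sign, 20 fell short of the threshold and 18 came to pass it. Every call after EP300 siRNA held under every alternative for SLC7A11, GCLC, GCLM, GSS, CHAC1, GSR and GPX4, and for GPX8 without H2O2, with SLC7A11 between 1.26 and 1.84 with H2O2 and between 1.98 and 2.60 without.

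Counts that moved by over 1.5 times were these, and their cause was not tested. Genes of the 9 called higher in siEP300.H2O2 than in siEP300 numbered 1, against 2 with the within-group axis as a covariate or with only the groups compared, and 1 to 2 leaving out each library. Between siNC.H2O2 and siNC, 1 was called higher, against 0 from FPKM at either pseudocount and 0 to 1 leaving out each library, and 0 were called lower by edgeR, against 1 with the axis, 2 from FPKM at either pseudocount and 0 to 1 leaving out each library. Of the lists, 35 genes were called higher there, against 21 from FPKM at either pseudocount. The interaction was lower for 2 of the 9, against 1 from FPKM with a pseudocount of 0.1 and 1 to 2 leaving out each library. Over all genes the interaction was called higher for 148, against 687 with the axis, 325 and 265 from FPKM with pseudocounts of 1 and 0.1, and 59 to 258 leaving out each library, and lower for 291, against 1042 with the axis and 137 to 459 leaving out each library. In the lists it was called higher for 0 and lower for 14 genes, against 13 and 33 with the axis, 2 higher from DESeq2 and from FPKM at either pseudocount, and 0 to 3 higher and 8 to 19 lower leaving out each library. The axis was estimated from these libraries' residuals, so its p-values are too small. Counts of the 9 genes were as low as 105 per library, for CHAC1, and the standard errors given cover the precision this allows.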

Other observations

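In siNC.H2O2 against siNC, 1 of 15 genes of NADPH supply was called higher and 6 lower, and 8 of 20 thioredoxins, peroxiredoxins and glutaredoxins were called higher and 1 lower, beside 17.8% of all genes higher and 17.4% lower. IDH2 fell by 0.47 ± 0.06 there and by 0.46 ± 0.06 in siEP300.H2O2 against siEP300, and PRDX6, a peroxidase that uses glutathione, rose by 0.39 ± 0.06 and 0.23 ± 0.06. SLC25A39, the mitochondrial glutathione importer, rose by 0.52 ± 0.09 in each of these comparisons, with an interaction of 0.00.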
